A study of Mus musculus with 12 samples.

Results

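Ribosome footprints of 8 genes that code for organic anion and organic cation uptake transporters were examined in mouse liver. They were the rows of the Ribo-seq table with the gene symbols Slco1a1, Slco1a4, Slco1b2, Slco2a1, Slco2b1, Slc22a5, Slc22a7 and Slc22a18, that is 8 of 25029 genes listed once in that table. The mice were male C57BL/6 animals aged 16 weeks that had received a high-fat diet from an age of 8 weeks for 8 weeks, either alone (HFD group) or with lycopene (LYC group). Lycopene is the red carotenoid of tomato. Each group had 3 Ribo-seq libraries, named HFD1 to HFD3 and LYC1 to LYC3. The high-fat diet was common to all 6 libraries, no group on normal feed was analysed here, and under treatment the labels of the LYC mice give the high-fat diet alone, so that their lycopene rests on the sample titles and the study's methods. The labels also say that material of the groups was pooled before library construction, whereas the paper describes 3 biological replicates per group. The p-values therefore measure the spread between these libraries, which may be in part technical.

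The Slco genes code for organic anion transporting polypeptides, which exchange large amphipathic anions such as bile acids, conjugated bilirubin, steroid conjugates and many drugs across the plasma membrane without sodium. The Slc22 family holds the organic cation, organic anion and carnitine transporters, which take up smaller charged molecules. In hepatocytes most of these proteins lie in the sinusoidal membrane, where they remove compounds from portal blood before metabolism and export into bile.

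The Ribo-seq libraries differed in depth. The 3 HFD libraries held between 834410 and 4405541 reads and the 3 LYC libraries between 311050 and 412116, as recovered from the steps between RPKM values, and the median HFD library was 6.91 times as deep as the median LYC library. No LYC library was as deep as any HFD library, so depth and diet cannot be told apart. RPKM, the reads of a gene scaled to its transcript length and to the reads of the library, is the unit of every level below. The liver label was checked against 7 hepatocyte markers, whose summed level, mostly that of Alb, ranged from 43848 to 47457 RPKM over HFD1 to HFD3 and from 35940 to 41092 over LYC1 to LYC3. The list itself ran the other way: its median log2 fold change was 0.60, with 5 of 7 markers above 0, of which limma called Cps1 (1.07) and Tat (1.55) higher and 0 lower, whereas Alb had −0.42. Over 18 alternatives Tat was called in 18 and Cps1 in 8, and the median of the list came to 0.32 under scaling by total reads and to 0.25 with the trend on gene length removed. A separate table of 6 libraries labelled RNA-seq followed the Ribo-seq libraries closely: the labelled HFD1, HFD2 and HFD3 were nearest to the Ribo-seq libraries HFD2, HFD3 and HFD1 (Pearson's r across 24586 genes 0.958, 0.952 and 0.950, a description within pairs of libraries), and the LYC libraries were nearest to their own numbers. Of 48 counts of the 8 genes, 13 were equal to the reads of the nearest Ribo-seq library and 26 were within 3 reads of it, with a median difference of 2.39%. That table was therefore not treated as a second measurement, and no ratio of footprints to mRNA was computed.

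Of the 8 genes, Slco2a1 alone was called lower in the LYC group by the rule given below, and 0 were called higher. This does not mean that the others were unchanged. Slco2a1, the prostaglandin transporter, went from 34.3 ± 9.92 RPKM (SD, n = 3) in the HFD group to 5.35 ± 3.39 (n = 3) in the LYC group. All 8 genes passed the filter on low reads, as did 5665 genes in all. The filter asks for enough reads, relative to depth, in 3 libraries. Slco2a1 (6, 1 and 7 reads in LYC1 to LYC3) and Slc22a7 (6, 0 and 11) met it through the HFD libraries, where they were higher. Passing it is thus no separate support for their lower LYC values. With limma a gene was called when its absolute log2 fold change exceeded 1 and its unadjusted p was below 0.01. By that rule 13.5% of all genes tested were called, 6.55% lower and 6.97% higher in the LYC group, beside 1 of 8 transporters called lower and 0 of 8 called higher. Over all genes these were 395 higher and 371 lower calls, which became 234 and 658 with libraries scaled by total reads alone and 318 and 466 with TMM factors from all genes above 0, a scaling added after seeing the data. At an unadjusted p under 0.05 with limma 2 of the 8 genes had higher and 3 had lower values in the LYC group, beside 14.9% and 15.3% of all genes tested, and edgeR's quasi-likelihood test and DESeq2 on recovered reads each called 0 higher and 1 lower. In RPKM all 3 LYC libraries lay below all 3 HFD libraries for 4 of the 8 genes, beside 27.6% of all genes tested, and above them for 1 of the 8, beside 10.0%. The median log2 fold change was −0.23 over the 8 genes and −0.10 over all genes tested.

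Levels spanned a wide range. In the HFD group Slco1b2 came first with a mean of 293 RPKM, 4.46 times the next gene, and its range did not overlap with that of any other gene. Slco1a1 (65.7 RPKM) and Slc22a18 (61.1) followed and their ranges overlapped, so these neighbours did not differ beyond their spread. Slco2b1 (41.7), Slco2a1 (34.3) and Slc22a7 (24.8) came next, each overlapping with the following one of these 3. Within libraries Slco2b1 was above Slco2a1 in all 3 and Slco2a1 above Slc22a7 in 2. Slco1a4 (7.68) and Slc22a5 (4.35) were lowest and their ranges overlapped, although Slco1a4 was above Slc22a5 within each of the 3 libraries. In the LYC group the first 4 places went to Slco1b2 (278 RPKM), Slco1a1 (107), Slc22a18 (40.7) and Slco2b1 (20.6), with no overlap between neighbours. The last 4, Slc22a5 (7.99), Slc22a7 (6.96), Slco1a4 (6.69) and Slco2a1 (5.35), overlapped from each to the next. Slco2a1 thus held the fifth place in the HFD group and the last in the LYC group. Its place depends on the gene length: the Ribo-seq values imply a length of 2207 bases and the table labelled RNA-seq one of 4451, at which its HFD mean would be 17.0 RPKM, below that of Slc22a7.

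**Figure D1:**
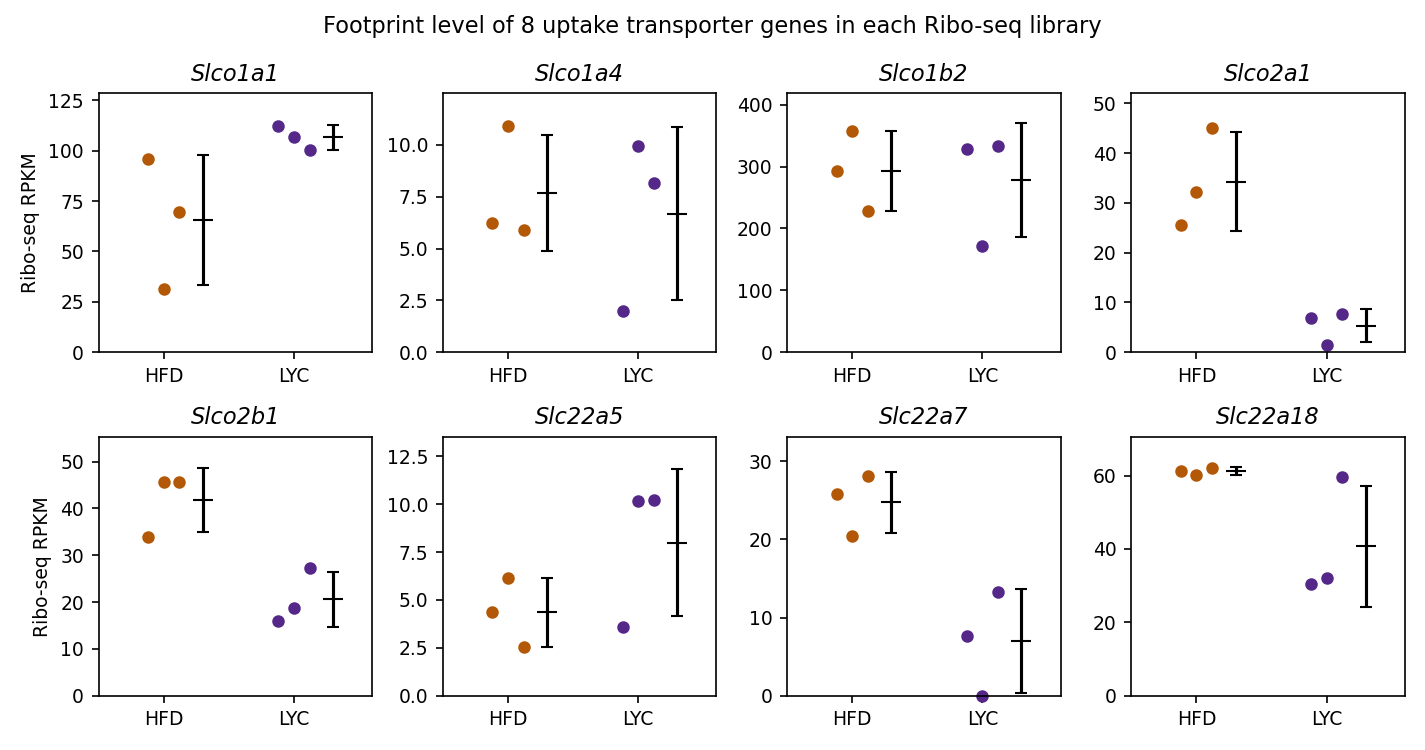
Ribo-seq RPKM (linear axes from 0) of the 8 transporter genes, one panel a gene; points are the 3 HFD and 3 LYC libraries, in the order 1 to 3, and the bars beside them the mean ± SD. Slco2a1, Slco2b1, Slc22a7 and Slc22a18 have all LYC points below the HFD points, and Slco1a1 has all LYC points above.

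Slco1b2, the main hepatocyte transporter of this family, carries bile acids, conjugated bilirubin and drugs such as statins. It lies at chr6:141629452-141686646 (GRCm38.p6, plus strand) and has 14 coding exons. It stood at 293, 357 and 228 RPKM in HFD1, HFD2 and HFD3 and at 329, 172 and 334 RPKM in LYC1, LYC2 and LYC3. The groups overlapped, with LYC2 the lowest of the 6 libraries and HFD2 the highest. The log2 fold change was 0.17 (SE 0.34, 95% confidence interval −0.61 to 0.96, limma adjusted p = 0.768). Without LYC2 it was 0.57 (limma adjusted p = 0.129). With 5208 reads in HFD2 and at least 177 in every library, this was the most deeply covered of the 8 genes.

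Slco1a1 and Slco1a4 are neighbours of Slco1b2 on chromosome 6. The Slco1a1 protein takes up bile acids and sulfated steroids and is more abundant in male than in female mouse liver; the Slco1a4 protein takes up bile acids and cardiac glycosides. Slco1a1 lies at chr6:141907281-141946962 and Slco1a4 at chr6:141805438-141856284, both on the minus strand with 14 coding exons. Their coding sequences, of 2010 bases each in GENCODE, were 86.7% identical. Of all windows of 28 bases, about the length of a footprint, 12.4% of those in Slco1a1 and 19.5% of those in Slco1a4 were also found in a transcript of another gene, namely Slco1a5, Slco1a6, the gene models Gm5724 and Gm6614, or each other. The longest stretch that both genes share, 132 bases, is shown because a footprint from it cannot be given to either gene; capitals mark the shared bases, and the stretch shown runs from base 657 to 818 of each coding sequence.
Slco1a1: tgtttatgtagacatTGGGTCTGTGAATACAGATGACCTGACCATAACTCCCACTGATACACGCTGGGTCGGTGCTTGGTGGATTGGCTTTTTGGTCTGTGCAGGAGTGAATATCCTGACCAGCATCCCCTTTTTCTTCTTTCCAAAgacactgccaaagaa
Slco1a4: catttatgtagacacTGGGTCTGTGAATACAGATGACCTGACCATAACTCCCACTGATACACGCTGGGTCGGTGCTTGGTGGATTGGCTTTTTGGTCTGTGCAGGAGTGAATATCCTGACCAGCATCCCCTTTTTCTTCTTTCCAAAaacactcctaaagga
How reads that fit several genes were counted is not given in the sources used here, so the values of these 2 genes are uncertain to that extent. Slco1b2, Slco2a1, Slco2b1, Slc22a7 and Slc22a18 had no such window.

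Slco1a1 stood at 95.9, 31.5 and 69.8 RPKM in the HFD libraries and at 112, 107 and 100.3 RPKM in the LYC libraries. All 3 LYC libraries were above all 3 HFD libraries, HFD2 was far below the other HFD libraries, and the LYC values lay close together. The HFD mean was 65.7 ± 32.4 RPKM (SD, n = 3) and the LYC mean 107 ± 6.09 (n = 3). The log2 fold change of 1.11 (SE 0.44, 95% confidence interval 0.11 to 2.11) did not pass the call (limma adjusted p = 0.132). The exact permutation test over libraries gave p = 0.1, the smallest that 3 against 3 allows (two-sided). The estimate moved with single HFD libraries. It was 0.57 without HFD2 (limma adjusted p = 0.337), and without HFD1 it was 1.50 and passed the call (limma adjusted p = 0.0972). With a replicate block the value of 1.11 also passed (limma adjusted p = 0.0712), although replicate numbers do not pair the mice.

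Slco1a4 stood at 6.25, 10.9 and 5.88 RPKM in the HFD libraries and at 1.96, 9.96 and 8.15 RPKM in the LYC libraries. The groups overlapped throughout, and LYC1 was the lowest library. The level in LYC1 came from 3 reads and that in the whole LYC group from 28. Between the groups it differed by −0.10 on the log2 scale (SE 0.47, 95% confidence interval −1.16 to 0.97, limma adjusted p = 0.913), and by 0.45 without LYC1 (limma adjusted p = 0.369). Of the related genes, Slco1a5 was below the filter at 1.85 ± 1.08 RPKM in the HFD group and 4.73 ± 4.15 in the LYC group (SD, n = 3 each), and Slco1a6 was listed at 0 in all 6 libraries.

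Slco2a1 takes up prostaglandins, which ends their action outside the cell, and is expressed in endothelial and other cells. It lies at chr9:103007061-103096002 (GRCm38.p6, plus strand) with 14 coding exons and a coding sequence of 1929 bases. It stood at 25.6, 32.1 and 45.1 RPKM in the HFD libraries and at 6.89, 1.46 and 7.70 RPKM in the LYC libraries. Every LYC library was below every HFD library, and the lowest HFD value was 3.33 times the highest LYC value. It fell by 2.37 on the log2 scale (SE 0.54, 95% confidence interval −3.60 to −1.14, limma adjusted p = 0.0263 over all genes tested). The difference rested on few reads: 154, 312 and 83 in the HFD libraries against 6, 1 and 7 in the LYC libraries, where the HFD mean RPKM would give 84.5 reads over the 3 LYC libraries together and 14 were found. Without HFD3 the log2 fold change was −2.10 and the call was lost (limma adjusted p = 0.130). The exact permutation test gave p = 0.1, its smallest value.

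Since liver endothelial cells are among those that can hold Slco2a1, markers of sinusoidal endothelial cells were set beside it. Of 8 markers, 7 were tested and 0 were called with limma, where 1 had a higher and 1 a lower value at an unadjusted p under 0.05; edgeR and DESeq2 called 0 as well. Their summed level spanned 84.2 to 121 RPKM under HFD and 45.4 to 155 under LYC, and none of them was at 0 throughout a group. Members of the list did not move together, with log2 fold changes from −1.01 to 0.94 and a median of −0.35 with limma and 0.16 with edgeR. Without LYC2 the Slco2a1 log2 fold change was −1.71 (limma adjusted p = 0.0169), still called, while in the same setting 2 endothelial markers were called higher and the median of the list was 0.26. Without LYC1, without LYC3, under scaling by total reads and with TMM factors from all genes above 0, 1 endothelial marker each was called lower, with medians of −0.29, −0.92, −0.61 and −0.47. Markers of the other cell types were also checked. The summed level of 8 Kupffer cell and macrophage markers spanned 142 to 187 RPKM under HFD and 137 to 206 under LYC, and that of 7 stellate cell markers 85.7 to 164 and 81.3 to 124. Of these, 6 and 4 were tested and limma called 0 of either list; at an unadjusted p under 0.05 limma had 1 Kupffer cell marker higher and 0 stellate markers, and edgeR and DESeq2 each called 1 Kupffer cell marker higher and 0 stellate markers. Without LYC3 limma called 1 Kupffer cell marker higher and 1 stellate marker lower, with the stellate median moving from −0.19 to −0.73, and with no filter on low values it called 1 Kupffer cell marker lower. The 4 erythroid markers summed to 322 to 652 RPKM under HFD and 504 to 648 under LYC, and both that were tested had higher values in the LYC group, with a median log2 fold change of 0.85; limma called 0 of them, both had an unadjusted p under 0.05, and edgeR and DESeq2 each called 1 higher. With limma 1 was called higher without HFD3, without LYC2, with DESeq2 size factors, with a pseudocount of 0.25 and with TMM factors that left out small non-coding RNA genes. The 6 cholangiocyte markers, none of which passed the filter, summed to 15.4 to 25.1 RPKM under HFD and 2.89 to 9.25 under LYC, and the 5 lymphocyte markers to 3.57 to 4.31 and 0.612 to 2.77. For both lists every LYC sum lay below every HFD sum. These LYC sums came from 3, 5 and 7 reads and from 2, 1 and 6 reads, and counts this low limit the comparison. Slco2a1 itself had 6, 1 and 7 reads in the same libraries. With no filter on low values limma called 1 cholangiocyte marker lower and 0 higher, with a median of −0.43. In that setting it called 0 lymphocyte markers, with a median of −0.43. In liver as a whole, fewer cells of a type and less RNA per cell cannot be told apart, and the part of these cell types in the difference was not tested.

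Slco2b1 takes up steroid sulfates such as estrone sulfate. It lies at chr7:99657804-99711340 (GRCm38.p6, minus strand), and its exons overlap those of the antisense gene Gm15635, whose reads cannot be told apart from its own if strand was not used in counting. It stood at 33.9, 45.6 and 45.8 RPKM in the HFD libraries and at 15.9, 18.7 and 27.2 RPKM in the LYC libraries. All LYC libraries were below all HFD libraries. The mean was 41.7 ± 6.82 RPKM (SD, n = 3) in the HFD group and 20.6 ± 5.91 (n = 3) in the LYC group, and 108 reads were found in the LYC libraries where the HFD mean would give 216.2. The log2 fold change of −0.73 (SE 0.28, 95% confidence interval −1.37 to −0.09, limma adjusted p = 0.124) did not pass the call. With libraries scaled by their total reads alone, it was −1.01 and passed (limma adjusted p = 0.0587). That scaling moved the median of all genes from −0.10 to −0.36.

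Among the Slc22 genes, Slc22a5 codes for the sodium-dependent carnitine transporter, which supplies carnitine for the entry of long-chain fatty acids into mitochondria. It lies at chr11:53864542-53891796 (GRCm38.p6, minus strand) with 10 coding exons. Of its windows of 28 bases, 36% were also found in transcripts of Slc22a21, Slc22a4 or the gene model Gm12220. Its coding sequence was 90.5% identical to that of Slc22a21, another carnitine transporter gene, and the longest stretch they share, 157 bases in capitals, is shown for the same reason as above; it starts 15 bases into the stretches shown, which run from base 1274 to 1460 of Slc22a5 and from base 1283 to 1469 of Slc22a21.
Slc22a5: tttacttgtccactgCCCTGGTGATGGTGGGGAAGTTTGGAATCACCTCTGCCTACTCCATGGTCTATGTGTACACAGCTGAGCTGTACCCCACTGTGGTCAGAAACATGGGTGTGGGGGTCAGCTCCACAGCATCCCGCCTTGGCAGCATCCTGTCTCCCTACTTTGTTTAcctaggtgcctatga
Slc22a21: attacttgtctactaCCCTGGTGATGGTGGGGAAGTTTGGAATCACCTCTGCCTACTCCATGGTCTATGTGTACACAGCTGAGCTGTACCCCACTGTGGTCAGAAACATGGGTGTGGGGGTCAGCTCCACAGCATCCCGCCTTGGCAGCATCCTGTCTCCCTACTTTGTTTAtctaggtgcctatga
Slc22a21 itself was below the filter at 2.17 RPKM in the HFD group and 1.01 in the LYC group, and Slc22a4 likewise at 1.14 and 1.58.

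Slc22a5 stood at 4.38, 6.14 and 2.53 RPKM in the HFD libraries and at 3.56, 10.2 and 10.2 RPKM in the LYC libraries. LYC2 and LYC3 were above all HFD libraries, but LYC1 lay within the HFD range. The LYC values came from 4, 9 and 12 reads. The log2 fold change of 0.93 (SE 0.41, 95% confidence interval 0.01 to 1.85) did not pass the call (limma adjusted p = 0.162). Without LYC1 it was 1.32 and passed (limma adjusted p = 0.0616).

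Slc22a7 codes for an organic anion transporter of the sinusoidal membrane that takes up nucleotides, nucleobases and drugs. It lies at chr17:46432185-46438477 (GRCm38.p6, minus strand) with 10 coding exons. It stood at 25.8, 20.5 and 28.1 RPKM in the HFD libraries and at 7.58, 0 and 13.3 RPKM in the LYC libraries. All LYC libraries were below all HFD libraries, and the count of 0 in LYC2 allows a level of up to 4.81 RPKM, the worth of 3 reads. In all 17 reads were found in the LYC libraries, where the HFD mean RPKM would give 55.6. Its log2 fold change was −2.09, but with an SE of 0.89 and a 95% confidence interval from −4.11 to −0.08 it did not pass the call (limma adjusted p = 0.154). The library at 0 set much of this value: without LYC2 the log2 fold change was −0.86 (limma adjusted p = 0.121). On recovered reads, edgeR's quasi-likelihood test gave −1.41 (adjusted p = 0.0791), which did not pass either. With a replicate block the value of −2.09 passed (limma adjusted p = 0.0561), although replicate numbers do not pair the mice.

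Slc22a18 codes for a transporter of organic cations whose substrates are poorly known and which is imprinted. It lies at chr7:143473726-143499334 (GRCm38.p6, plus strand) with 10 coding exons. It stood at 61.2, 60.1 and 62.2 RPKM in the HFD libraries and at 30.3, 32.1 and 59.7 RPKM in the LYC libraries. The HFD libraries were nearly equal, with a coefficient of variation of 1.71%, whereas LYC3 was close to them and LYC1 and LYC2 were lower. All LYC values were below the HFD values in RPKM, but after TMM scaling, which corrects for a few abundant genes, the groups overlapped. On the log2 scale the difference was −0.36 (SE 0.31, 95% confidence interval −1.06 to 0.33, limma adjusted p = 0.458), and it ran from −0.68 without LYC3 (limma adjusted p = 0.0652) to −0.15 without LYC2 (limma adjusted p = 0.756).

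**Figure D2:**
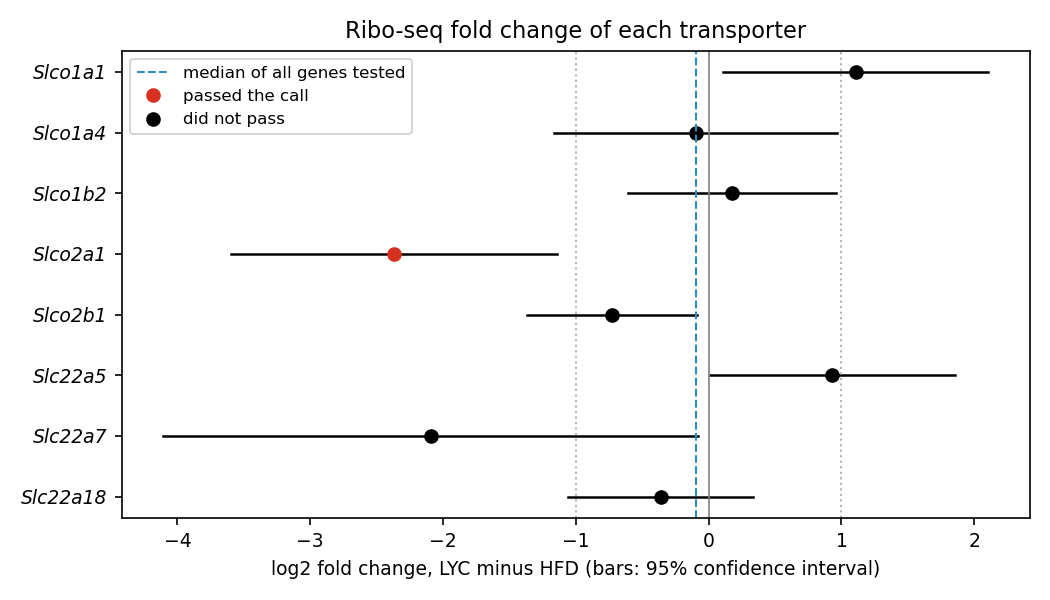
Log2 fold change of each transporter in Ribo-seq (LYC minus HFD, limma on log2 of scaled RPKM + 1), with 95% confidence intervals; the dashed line is the median of all 5665 genes tested and the dotted lines mark −1 and 1. Slco2a1, in red at −2.37, passed the call, and the intervals of Slco1a4, Slco1b2 and Slc22a18 hold 0.

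Summed over the 8 genes, the HFD libraries held 533 ± 40.3 RPKM (SD, n = 3) and the LYC libraries 473 ± 109 (n = 3), with overlapping values (exact permutation test over libraries, two-sided, p = 0.6). Shares of this sum do not depend on the scaling between libraries. Slco1b2 held 54.6 ± 8.32% of it in the HFD group and 57.8 ± 8.07% in the LYC group, with overlap. Slco1a1 held 17.5, 5.58 and 14.3% in HFD1 to HFD3, against 22.2, 30.4 and 17.9% in LYC1 to LYC3, all LYC libraries being higher. Slco2a1 held 4.68, 5.69 and 9.25% in HFD1 to HFD3, against 1.36, 0.415 and 1.37% in LYC1 to LYC3, all LYC libraries being lower. The mean shares of Slco2b1 (7.89% against 4.44%) and Slc22a7 (4.70% against 1.29%) were also lower in every LYC library than in any HFD library. For each of these 4 shares without overlap the exact permutation test gave p = 0.1, the smallest value it can give, and 0.2 after Benjamini-Hochberg adjustment over the 8 shares. The size of a difference in share depends on which genes are summed. With Slco1b2 left out of the sum, the LYC minus HFD difference went from 11.0 to 28.9 percentage points for Slco1a1 and from −5.49 to −11.7 for Slco2a1. It went from −3.45 to −7.25 for Slco2b1, from −3.41 to −6.93 for Slc22a7, from −2.95 to −5.34 for Slc22a18 and from 1.00 to 2.17 for Slc22a5. Single libraries also moved these differences. That of Slc22a5 was 0.46 without LYC2 and 1.56 without LYC1, and that of Slc22a18 was −1.65 without LYC1. The Slco1b2 difference of 3.16 became −0.76 without HFD3 and 7.56 without LYC2. The Slco1a4 difference of 0.13 became −0.51 without LYC2 and 0.72 without LYC1.

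**Figure D3:**
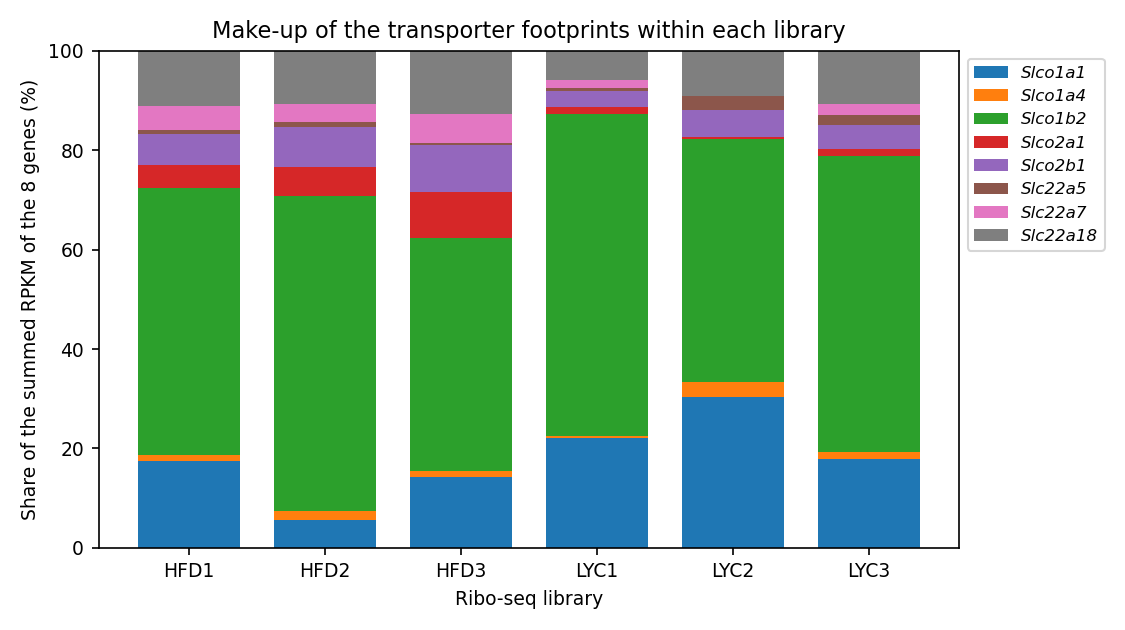
Share (%) of each transporter gene in the summed RPKM of the 8 genes, one stacked bar a library. Slco1b2 is the largest part of every bar, from 46.8% in HFD3 to 64.8% in LYC1, and the part of Slco2a1 is at most 1.37% in the LYC bars.

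In the table labelled RNA-seq, which is not independent of the Ribo-seq libraries, edgeR's quasi-likelihood test on the deposited counts likewise called Slco2a1 lower (log2 fold change −2.29, SE 0.48, adjusted p = 0.00345) and no other transporter, where 7.33% of the 5921 genes tested were called lower. Other settings of that test added calls: Slco2b1 (−1.80), Slc22a7 (−2.51) and Slc22a18 (−1.37) were called lower under scaling by total counts, Slc22a7 also without the filter on low counts (−1.57) and without LYC3 (−2.20), and Slco1a1 was called higher with a replicate block (1.11) and without HFD3 (1.38). Its Slco2a1 counts were 319, 89 and 159 under HFD, against 6, 1 and 7 under LYC, so the 3 LYC counts equalled the Ribo-seq reads of the same numbers.

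Most other genes of both families were low or at 0. Of 10 other Slco genes, 0 passed the filter and 6 were listed at 0 in every library, and the summed level of the 10 spanned 2.20 to 3.80 RPKM under HFD and 0 to 9.35 under LYC. Of 22 other Slc22 genes 9 were listed at 0 and 5 were tested. Of these limma called 1 higher and 2 lower, beside 6.97% and 6.55% of all genes tested. At an unadjusted p under 0.05 limma had 1 higher and 4 lower, beside 14.9% and 15.3% of all genes tested. The median of the 5 was −0.96, with 4 below 0. Scaling by total reads and TMM factors from all genes above 0 each gave 3 lower calls. Slc22a2, a transporter of organic cations known mainly from kidney, rose from 5.49, 5.20 and 8.40 RPKM to 9.48, 19.5 and 27.2 RPKM (log2 fold change 1.59, limma adjusted p = 0.0356). Slc22a30, of the organic anion branch, fell from 12.9, 14.1 and 16.2 RPKM to 0, 0 and 3.65 RPKM (log2 fold change −3.03, limma adjusted p = 0.0160). Its LYC levels came from 0, 0 and 3 reads, so it passed the filter through the HFD libraries. The fold change of Slc22a30 ran from −4.37 with a pseudocount of 0.25 to −2.64 without LYC2. Slc22a23, a member without a settled substrate, fell by 1.18 on the log2 scale (limma adjusted p = 0.0560). Of 18 alternatives Slc22a30 was called in 18, Slc22a2 in 14 and Slc22a23 in 9. Without HFD1, HFD2 or LYC3 there were 0 higher calls, and lower calls numbered 3 without LYC3 and 1 without any other single library.

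Of 16 other uptake transporters of hepatocytes, 11 were tested. Limma called 4 of them lower and 0 higher, beside 6.55% and 6.97% of all genes tested. At an unadjusted p under 0.05 limma had 0 higher and 5 lower, beside 14.9% and 15.3% of all genes tested, and edgeR called 0 higher and 3 lower. Their median log2 fold change was −0.47. Slc29a1, a nucleoside transporter, fell from 69.8, 94.8 and 96.1 RPKM to 17.5, 30.0 and 40.6 RPKM (log2 fold change −1.32, adjusted p = 0.0273). The other 3 were Slc16a1 (−1.93), a carrier of lactate and other monocarboxylates, Slc16a10 (−1.15), a carrier of aromatic amino acids, and Slc27a5 (−1.01), which activates bile acids for conjugation and takes up fatty acids. The calls moved with single libraries: 0 fell without HFD3, 1 without HFD1, 2 without each of HFD2, LYC1 and LYC2, and 4 without LYC3, and the median was −0.28 without LYC2, −0.73 without LYC3 and −0.76 under scaling by total reads. Of 18 alternatives Slc29a1 was called in 16, Slc16a10 in 14, Slc16a1 in 10 and Slc27a5 in 7. Of 13 efflux transporters 8 were tested, of which limma called 1 lower and 0 higher, beside 6.55% and 6.97% of all genes tested. The gene called was Abcb11, the bile salt export pump of the canalicular membrane (log2 fold change −1.03, limma adjusted p = 0.0187). At an unadjusted p under 0.05 with limma 2 of the 8 had higher and 3 lower values, beside 14.9% and 15.3% of all genes. EdgeR called 1 higher and 1 lower. Without LYC2 and with a replicate block limma called 1 efflux transporter higher. Lower calls of this list numbered 0 without HFD3, without LYC1 and with the gene-length correction, and 3 without LYC3 and under scaling by total reads.

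Of 10 genes of carnitine handling, which stand beside the carnitine transporter Slc22a5, 8 were tested. Limma called 1 of them higher and 0 lower, beside 6.97% and 6.55% of all genes tested. At an unadjusted p under 0.05 with limma 4 had higher and 0 lower values, beside 14.9% and 15.3% of all genes. EdgeR called 1 of these genes higher and 0 lower. Their median log2 fold change was 0.42, and it was 0.26 without LYC2, 0.13 under scaling by total reads and 0.056 over all 10 genes when the filter on low values was left off. Bbox1, the last enzyme of carnitine synthesis, rose from 45.5, 68.3 and 42.0 RPKM to 85.6, 191.6 and 83.5 RPKM (log2 fold change 1.40, limma adjusted p = 0.0243), with a log2 fold change of 1.09 to 1.59 over all alternatives and no call under scaling by total reads or at an unadjusted p below 0.001. Of 14 nuclear factors that act on transporter genes, 13 were tested. Limma called 1 of them higher and 2 lower, beside 6.97% and 6.55% of all genes tested. Without HFD1 it called 0 higher and 1 lower, without HFD3 1 lower and without LYC3 3 lower. Nr1h4, the bile acid receptor FXR, rose from 21.2, 36.1 and 35.2 RPKM to 73.2, 52.1 and 61.5 RPKM (log2 fold change 1.30, limma adjusted p = 0.0292). Nr1h3, the oxysterol receptor LXR alpha (−1.61, adjusted p = 0.0225), and Foxa2, a factor of hepatocyte identity (−1.54, adjusted p = 0.0348), fell with limma. The LYC levels of Foxa2 came from 3, 4 and 2 reads and those of Nr1h3 from 6, 4 and 13. Both genes passed the filter through the HFD libraries. Of 18 alternatives Nr1h3 was called in 17, Nr1h4 in 16 and Foxa2 in 15. Foxa2 lost its call at an unadjusted p below 0.001, without HFD1 and without HFD3.

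**Figure D4:**
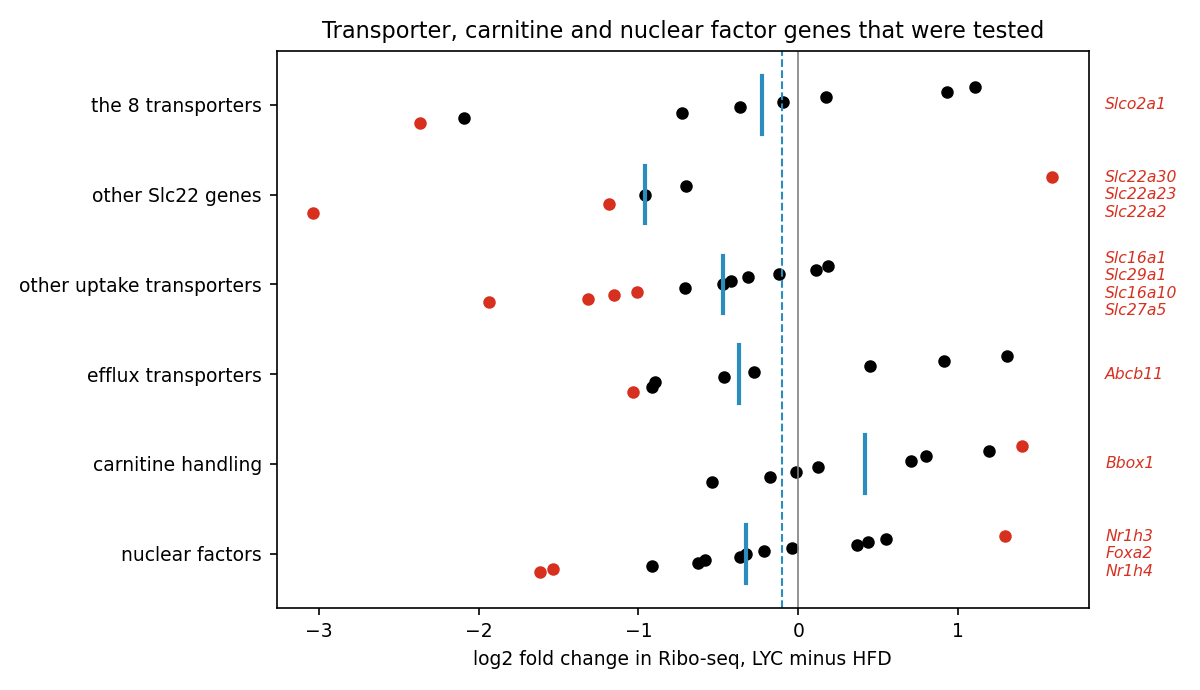
Log2 fold change in Ribo-seq (LYC minus HFD) of the tested genes of each list; each point is a gene, red points passed the call and are named at the right, thick blue bars are the medians of the lists and the dashed line the median of all genes tested. The median is −0.23 for the 8 transporters, −0.47 for the other uptake transporters and 0.42 for carnitine handling.

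Under 18 alternatives of scaling, test, threshold and libraries, Slco2a1 was called in 16, with log2 fold changes from −2.72 to −1.71. Slco1a1 was called in 2 (0.57 to 1.50), Slco2b1, Slc22a5 and Slc22a7 in 1 each (−1.01 to −0.53, 0.69 to 1.32 and −2.89 to −0.86), and Slco1a4, Slco1b2 and Slc22a18 in 0. The sign stayed the same in every alternative for 6 of the genes and turned for Slco1a4 and Slco1b2, whose estimates lay near 0.

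**Figure D5:**
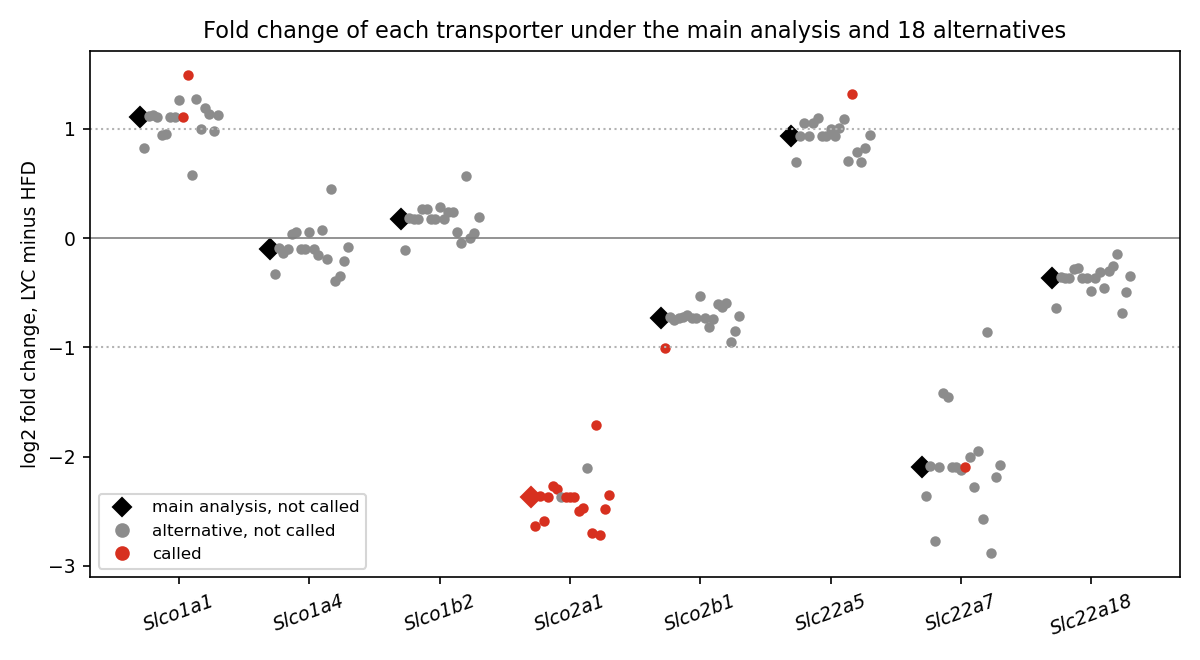
Log2 fold change (LYC minus HFD) of each transporter in the main analysis (diamonds) and 18 alternatives (circles, in a fixed order from left to right); red marks a called value and dotted lines mark −1 and 1. Slco2a1 is called in the main analysis and 16 of 18 alternatives, and the values of Slco1a4 and Slco1b2 lie on both sides of 0.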

How the data were processed

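The members and gene lists were chosen with earlier results of these data known. Ribo-seq values were deposited as RPKM. Values of the libraries labelled RNA-seq were deposited by the authors as read counts beside RPKM. According to the study's methods, reads were cleaned with cutadapt and Bowtie2, aligned to GRCm38/mm10 with STAR and quantified with FANSE2; versions, annotation release, strand use and the treatment of reads that fit several genes are not given in the sources used here. Whole reads were recovered from the RPKM steps, to within 0.02 reads, for all 15749 genes above 0, of which 4620 needed a gene length fitted to their own values. A total of 4 rows that share a name were left out.

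RPKM was divided by TMM factors (edgeR 4.0.16) and 1 was added. The factors were 1.04, 1.26 and 1.03 in HFD1 to HFD3 and 0.80, 1.01 and 0.92 in LYC1 to LYC3. Dividing by them raised every LYC library against every HFD library. Log2 fold changes and RPKM means are therefore on different scales. The log2 values were tested with limma 3.58.1 (mean-variance trend, R 4.3.3) over the 6 Ribo-seq libraries, all genes kept by filterByExpr. Adding 1 understates the change of low genes. P-values were adjusted by Benjamini-Hochberg over all 5665 genes. Alternatives were edgeR's quasi-likelihood test and DESeq2 1.42.0 on recovered reads, other scalings, a pseudocount of 0.25, no filter, other thresholds, a gene-length correction, a replicate block and leaving out each library. Counts labelled RNA-seq were tested with edgeR. On simulated data of the same depth limma recovered 45 of 46 genes changed 4-fold and 17 of 44 changed 2-fold. The simulation gave every gene the same spread, set in advance and not estimated from these libraries. Changed genes were drawn only from those above a least mean number of reads. These numbers therefore do not give the power for the real libraries, which can be lower. The genes named are the 8 transporters, list genes that passed the call, and paralogs or neighbours of a member; Alb was named after its values were seen. Coding sequences came from GENCODE vM21 and positions from the RefSeq table of GRCm38.p6.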

Additional observations from a re-analysis of the deposited data

How the results depend on the processing

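Over all genes, 395 higher and 371 lower calls became 234 and 658 under scaling by total reads, 193 and 108 at an unadjusted p below 0.001, and, for lower calls, 719 without the filter on low values; lower calls numbered 188, 197 and 155 without HFD1, HFD2 and HFD3 and 609 without LYC3, and leaving out any 1 library gave 287 to 492 higher calls. Of the 8 transporters, 0 called higher and 1 called lower became 2 lower under scaling by total reads (Slco2a1 and Slco2b1 at −1.01) and 0 lower at an unadjusted p below 0.001, where Slco2a1 kept −2.37. Leaving out 1 library each gave 0 to 1 higher (Slco1a1 without HFD1, Slc22a5 without LYC1) and 0 to 1 lower (0 without HFD3). Those log2 fold changes ran from 0.57 to 1.50 for Slco1a1, −0.39 to 0.45 for Slco1a4, −0.049 to 0.57 for Slco1b2, −2.72 to −1.71 for Slco2a1 and 0.70 to 1.32 for Slc22a5. The sign of Slco1a4 turned with edgeR (0.033), DESeq2 (0.054) and the gene-length correction (0.056), and that of Slco1b2 with scaling by total reads (−0.11). In the libraries labelled RNA-seq, scaling by total counts turned Slco1a1 (−0.13), Slco1b2 (−0.86) and Slc22a5 (−0.39), and leaving out HFD1 or LYC1 turned Slco1a4 (0.078 and 0.18, within −0.55 to 0.18 over all libraries left out). The cause of these moves was not tested. Replicate numbers do not pair the mice. Deviations of same-numbered libraries correlated at 0.106, 0.025 and −0.004. LYC1 and LYC2 correlated best, though weakly, with the HFD library of their own number, and LYC3 with HFD2 (0.07). With a replicate block 1 transporter was called higher (Slco1a1, 1.11) and 2 lower (Slco2a1, and Slc22a7 at −2.09), and 396 higher and 354 lower genes in all. TMM factors on all genes above 0 or without small non-coding RNA genes, both added after seeing the data, changed no call of the 8 transporters. In other transporter lists the first moved lower calls from 2 to 3 for other Slc22 genes and from 1 to 2 for efflux transporters. The second moved them from 4 to 3 for other uptake transporters. The LYC libraries' depth limits Slco2a1, Slco1a4, Slc22a5 and Slc22a7, which had 14, 28, 25 and 17 reads there in all.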
